A study of Drosophila melanogaster with 24 samples.

Results

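The genes described here are PCNA, the sliding clamp of DNA replication, and 9 further genes of the replication machinery: Mcm2, Mcm3, Mcm5, Mcm6, Mcm7, dup, Orc1, RnrL and RnrS. They were listed by name after earlier results of these data had shown a higher PCNA signal where cells with the Notch ligand Delta were in the culture, and the question put to them was whether PCNA moves alone or together with the others. Of the 10 listed genes, 8 were measured, each by 1 probe set that names that gene and no other, out of 11982 genes in the series. No probe set named Mcm7 or RnrS alone. The 8 measured members had a mean signal of 128.3 or more over the samples. None of them was lost to a filter on low values, since no such filter was set.

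DNA replication starts where the origin recognition complex, of which Orc1 is the largest subunit, sits on DNA and where Cdt1, called dup (double parked) in flies, helps to load the MCM helicase. That helicase is a ring of related subunits, Mcm2 to Mcm7. At the fork PCNA forms a ring around DNA and holds the polymerases to their template, and ribonucleotide reductase, with RnrL as its large and RnrS as its small subunit, makes the deoxynucleotides. Genes of this machinery are known to be transcribed together at the entry into S phase under E2F and, in flies, under the promoter-binding factor DREF.

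The cultures were mixes of 2 populations of S2 cells, a blood cell-like line of Drosophila melanogaster, kept together for 45 minutes before total RNA was taken from both populations at once. A mix is written as its populations joined by a stroke. S2 stands for the plain line, S2-Dl for a line expressing Delta, S2-DlDI for one expressing Delta without its intracellular domain, and S2-NFull and S2-NDCterm for lines read here as carrying forms of Notch, the Delta receptor, as the labels leave these names unexplained. The 8 mixes were S2/S2 (3 samples), S2/S2-Dl (3), S2/S2-DlDI (2), S2-NDCterm/S2-Dl (2), S2/S2-NDCterm (2), S2-NFull/S2 (1), S2-NFull/S2-DlDI (1, from 2 arrays) and S2-NFull/S2-Dl (1). Each replicate was a pool of 2 independent samples, all mixes shared the S2 background and the time, and no promoter or clone of a line was stated.

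The 24 arrays gave 1 signal per probe set on a linear scale of arbitrary units, and depth in reads does not apply to them; the number of arrays limits the precision. The source field of the labels named embryonic epidermis, whereas the titles named S2 mixes. In S2/S2 the 7 plasmatocyte markers had a median signal of 287 with 5 above 100, and the 7 epidermal markers had a median of 8.13 with 0 above 100. Above 100 were also 1 of 3 neuronal markers (elav, 206) and 1 of 3 glial markers (loco, 945). None of the 5 crystal cell and lamellocyte markers was, nor any measured muscle, fat body or germline marker. On 5 occasions a pair of arrays bore 1 title, and 4 of these pairs (8 arrays) differed as much as separate replicates do and were left out, which leaves 15 samples from 16 arrays. Among the left-out arrays were 2 labelled S2-NFull/S2-DlDI with Delta signals of 12295 and 11031, and 1 labelled S2-NDCterm/S2-Dl with 13.9. In the 15 samples Delta ran from 11070 to 12968 in the 6 with Dl cells and from 3.35 to 41.3 in the 9 without. Delta was as low in S2/S2-DlDI (13.6 ± 2.38, SD, n = 2) as in mixes without any Delta line, so this probe set does not check the label of the DlDI cells. Array medians ran from 9.82 to 20.9, and S2/S2 replicate 2, at 20.9, stood apart from the rest, which ended at 14.2. Since the RNA of both populations was pooled, a gene that the added line makes by itself and a gene that answers to contact cannot be told apart, nor can fewer cells of a kind and less RNA per cell.

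PCNA separated the mixes by the presence of Dl cells. In S2/S2 its signal was 1287, 1477 and 1198, and in S2/S2-Dl it was 3614, 4281 and 3134. Beside NDCterm cells it was 3566 and 3984 with Dl cells and 1482 and 1596 with plain S2 cells. The single S2-NFull/S2 sample had 1504 and the single S2-NFull/S2-Dl sample 4599. All 3 mixes with Dl cells thus stood above their partners without, with no overlap within any pair. In the truncated Delta mixes the signal was 1777 and 1375 in S2/S2-DlDI and 1607 in S2-NFull/S2-DlDI, below every sample with Dl cells. Over all samples, the 6 with Dl cells ran from 3134 to 4599 with a median of 3799, and the 9 without ran from 1198 to 1777 with a median of 1482.

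**Figure D1:**
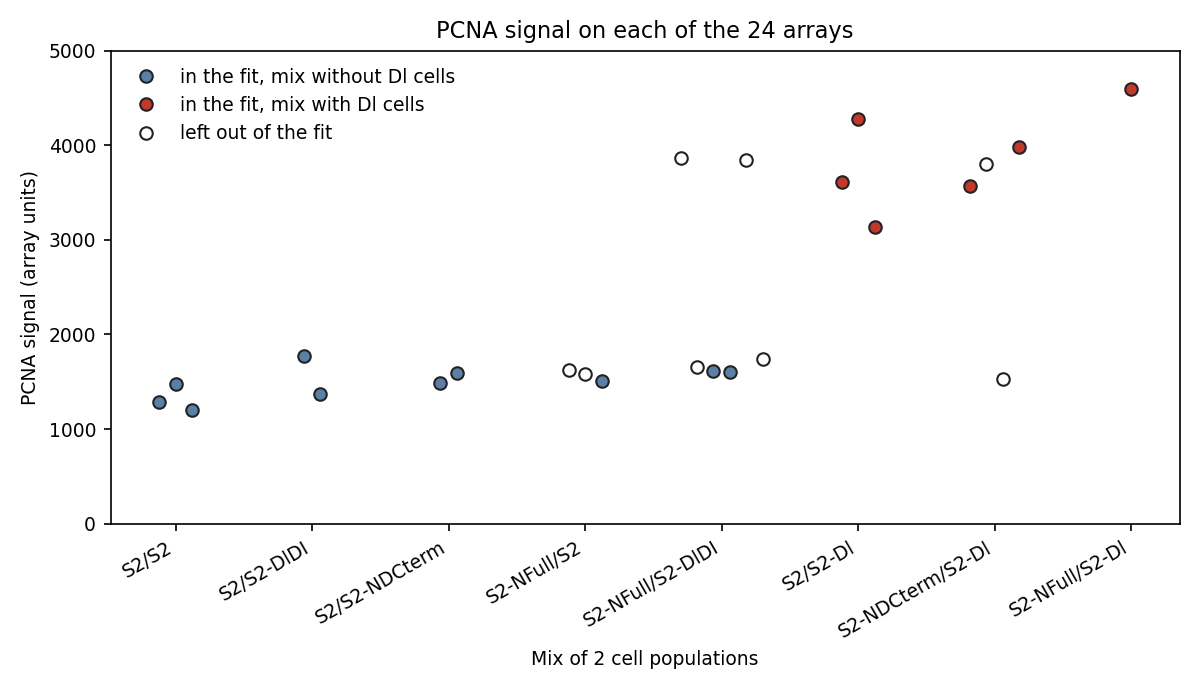
PCNA signal (linear array units, axis from 0) on each of the 24 arrays by labelled mix, with arrays in the fit filled and the 8 left-out arrays open. The filled points with Dl cells lie between 3134 and 4599 and the filled points without lie between 1198 and 1777, while 3 of the open points lie between 3805 and 3862 and the other 5 between 1524 and 1737.

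These differences chose the members, so they are given as a description with no test. A change is the difference of the mean log2(signal + 32) between 2 mixes, from 1 linear model over all 18769 probe sets with limma, and the error is its standard error (SE). PCNA was higher by 1.45 ± 0.14 in S2/S2-Dl than in S2/S2, a ratio of mean signals of 2.78. It was higher by 1.28 ± 0.17 in S2-NDCterm/S2-Dl than in S2/S2-NDCterm (ratio 2.45) and by 1.59 ± 0.24 in S2-NFull/S2-Dl than in S2-NFull/S2 (ratio 3.06). Against the truncated ligand it was higher by 1.21 ± 0.15 beside S2 cells and by 1.498 ± 0.24 beside NFull cells. With a single sample in a mix, the SE rests on the spread of the other mixes. The first and the fourth of these comparisons share the S2/S2-Dl samples, and the third and the fifth share the S2-NFull/S2-Dl sample.

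The ratio of the 3′ to the 5′ Gapdh control probe sets, a measure of RNA quality, moved with Dl cells. It was 1.46 to 2.82 in the 6 samples with Dl cells and 1.87 to 3.13 in the 9 without, and its part in the PCNA difference was not tested. The 5 left-out arrays with a PCNA signal of 1737 or less had ratios of 2.06 to 3.08, and the 3 with a signal of 3805 or more had 1.76 to 2.25.

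On the left-out arrays PCNA went with Delta. Where a pair of arrays shared a title and differed in Delta, they differed in PCNA in the same sense. For S2-NDCterm/S2-Dl replicate 2 the array with a Delta signal of 11382 had a PCNA signal of 3805, and the array with a Delta signal of 13.9 had 1524. For S2-NFull/S2-DlDI replicate 1 the Delta signals were 12295 and 156 and the PCNA signals 3862 and 1661. For S2-NFull/S2-DlDI replicate 3 the Delta signals were 11031 and 1.67 and the PCNA signals 3845 and 1737. In the pair of S2-NFull/S2 replicate 1, where Delta was 6.60 and 18.4, PCNA was 1620 and 1581. Both arrays of a pair bear the same label, so these values tie PCNA to the Delta signal on an array and not to a labelled mix. The other 7 members differed by -0.02 to 0.53 (log2) in the first of these pairs, by -0.28 to 0.07 in the second and by -0.30 to 0.27 in the third, while PCNA differed by 1.30, 1.20 and 1.13.

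Orc1, of the origin recognition complex, did not separate the mixes. Its signal was 118, 183 and 86.0 in S2/S2 and 136, 160 and 120 in S2/S2-Dl. The mixes overlapped, and its change of 0.12 ± 0.19 was smaller than its error. In S2-NDCterm/S2-Dl it was 101 and 93.1 against 113 and 86.9 in S2/S2-NDCterm, a change of -0.02 ± 0.24. The single S2-NFull/S2-Dl sample had 119 and S2-NFull/S2 had 172, a change of -0.43 ± 0.33.

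For dup, the Cdt1 homologue, the S2/S2 signals were 308, 513 and 265 and the S2/S2-Dl signals 394, 436 and 427. The high replicate 2 of S2/S2 lay above all S2/S2-Dl samples, and the change was 0.24 ± 0.21 with it and 0.50 ± 0.18 without it. In S2-NDCterm/S2-Dl dup was at 442 and 445 against 343 and 307 in S2/S2-NDCterm (0.42 ± 0.26), and in S2-NFull/S2-Dl it was at 348 against 232 (0.53 ± 0.37). The highest dup signal of the series, 615, was in S2/S2-DlDI replicate 2, a sample without Dl cells.

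The 4 helicase subunits measured among the members kept close to their partners. Mcm2 was at 345, 594 and 465 in S2/S2 and at 518, 692 and 564 in S2/S2-Dl, with overlap between the mixes and a change of 0.34 ± 0.17. Beside NDCterm cells it was at 656 and 646 with Dl cells against 568 and 495 without, which do not overlap (0.28 ± 0.21), and beside NFull cells at 569.8 against 463 (0.28 ± 0.29). Mcm5 was at 300.1, 409.9 and 332 in S2/S2 and at 402, 493 and 396 in S2/S2-Dl (0.29 ± 0.15). Its changes beside NDCterm and NFull cells were 0.27 ± 0.18 and 0.09 ± 0.26.

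In S2/S2-Dl against S2/S2, Mcm3 and Mcm6 had the smallest changes of the 8 members. Mcm3 was at 185, 249 and 184 in S2/S2 and at 181, 239 and 188 in S2/S2-Dl, a change of -0.02 ± 0.16, followed by 0.19 ± 0.19 and 0.20 ± 0.27 beside NDCterm and NFull cells. Mcm6 was at 528, 812 and 688 in S2/S2 and at 543, 743 and 663 in S2/S2-Dl, a change of -0.05 ± 0.15, followed by 0.05 ± 0.18 and -0.04 ± 0.25. Against S2/S2-DlDI (842 and 741) Mcm6 was lower in S2/S2-Dl by 0.28 on the log2 scale, with an SE of 0.16.

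RnrL, which makes the precursors of DNA, had the largest change after PCNA among the members in S2/S2-Dl against S2/S2. Its signal was 1020.45, 1135 and 885 in S2/S2 and 1363, 1426 and 1319.7 in S2/S2-Dl, with no overlap, and the change was 0.43 ± 0.11. Beside NDCterm cells it was 1674 and 1776 with Dl cells against 1374 and 1337 without (0.34 ± 0.13), again with no overlap, and 1307 in S2-NFull/S2 against 1709.8 in S2-NFull/S2-Dl (0.38 ± 0.19). The Dl cells did not set it apart from the other mixes, however. RnrL was at 1702 in S2-NFull/S2-DlDI, a mix without Dl cells, and the 9 samples without Dl cells ran from 885 to 1702 against 1319.7 to 1776 in the 6 with them. Its change against S2/S2-DlDI was 0.16 ± 0.12.

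**Figure D2:**
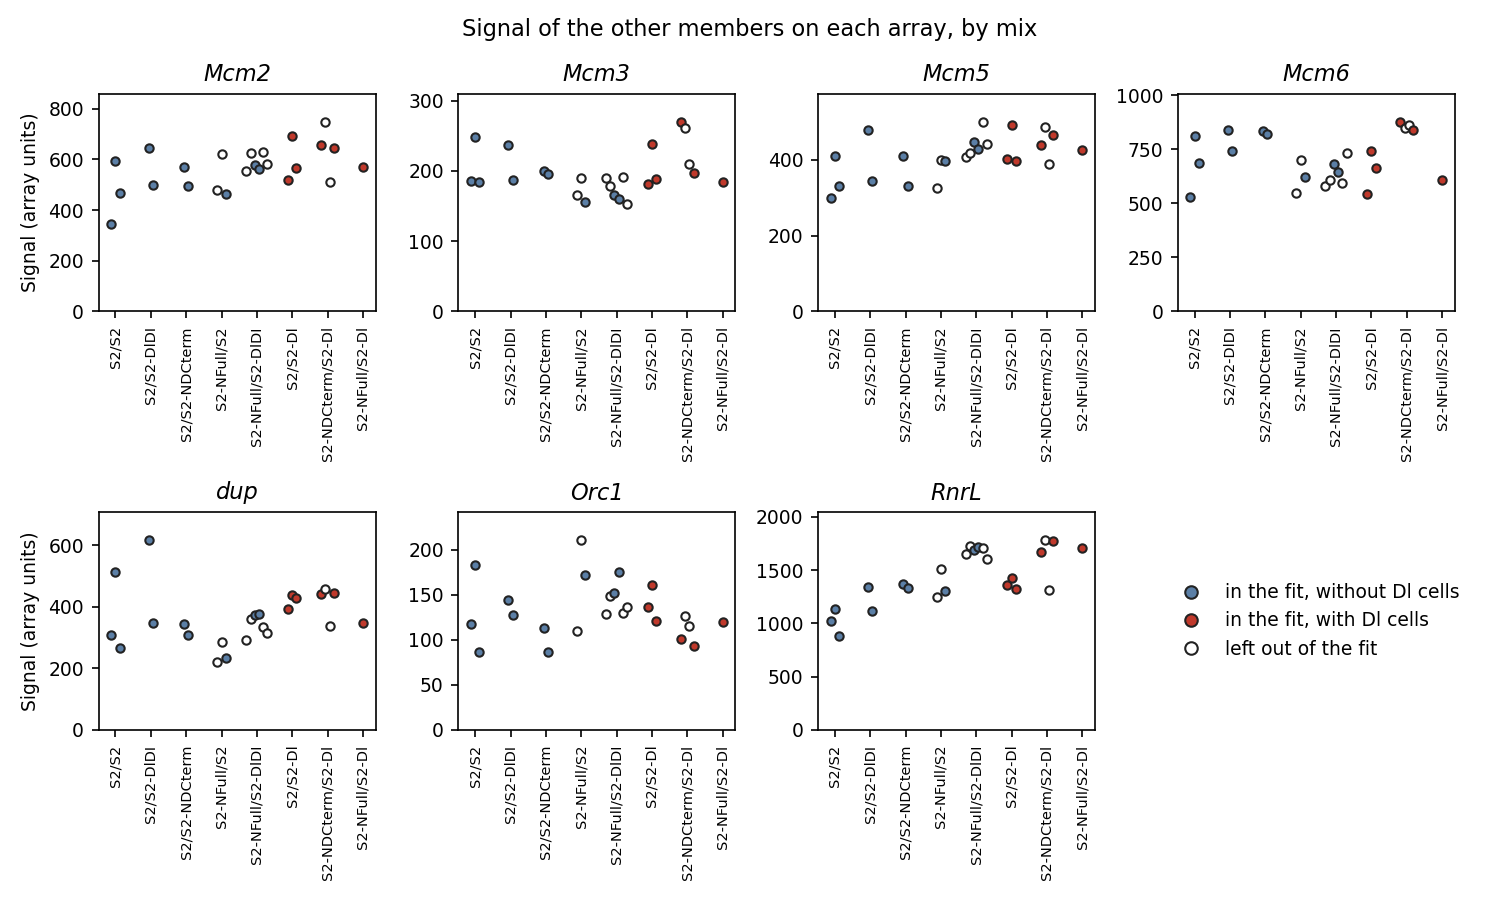
Signal (linear array units, each axis from 0) of Mcm2, Mcm3, Mcm5, Mcm6, dup, Orc1 and RnrL on every array by labelled mix, with the 8 left-out arrays as open points. Samples with and without Dl cells overlap in all 7 panels, and the lowest RnrL samples are the 3 of S2/S2 (885 to 1135) together with 1 of S2/S2-DlDI (1113).

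Set side by side, PCNA stood apart from the other 7 members wherever Dl cells were added. Those 7 ran from -0.05 to 0.43 with Dl cells beside S2 cells (median 0.24), from -0.02 to 0.42 beside NDCterm cells (median 0.27) and from -0.43 to 0.53 beside NFull cells (median 0.20), each against the mix with plain S2 cells in their stead. The median change of all probe sets was -0.05, 0.01 and 0.03 in the same order. Against the truncated ligand the 7 ran from -0.28 to 0.16 beside S2 cells (median 0.02). Beside NFull cells they ran from -0.37 to 0.15 (median -0.04). In S2/S2-DlDI against S2/S2, without Dl cells, all 7 were positive, with a median of 0.24. A probe set counts as called where its limma p, adjusted by Benjamini-Hochberg within the comparison, is below 0.05. On this rule 1 of the 8 members, PCNA, was called in each of the 5 comparisons with Dl cells, where 1.31%, 0.49%, 0.293%, 0.639% and 0.213% of all probe sets were called. The last 2 of these percentages are those against the truncated ligand. As PCNA was chosen on these comparisons, nothing is read from that count.

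With single samples left out in turn, the PCNA difference between S2/S2-Dl and S2/S2 ran from 1.33 to 1.56. Without S2/S2 replicate 2, the array that stands apart, it was 1.53 ± 0.14, and RnrL, at 0.51 ± 0.11, was then called as well. In that fit 207 of 18769 probe sets were called. Beside NDCterm cells the PCNA change was 1.20 ± 0.21 without S2-NDCterm/S2-Dl replicate 3 and 1.22 ± 0.22 without S2/S2-NDCterm replicate 1. Both fits leave 1 sample in a compared mix, so no call is read from them. S2-NFull/S2-Dl is replicate 2 and S2-NFull/S2 replicate 3, and with the replicate number as a block PCNA differed by 1.27 ± 0.18 between them, while Mcm2 (-0.10), Mcm3 (-0.17), Mcm5 (-0.27) and dup (-0.03) turned to the negative side and Orc1 reached -0.88.

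**Figure D3:**
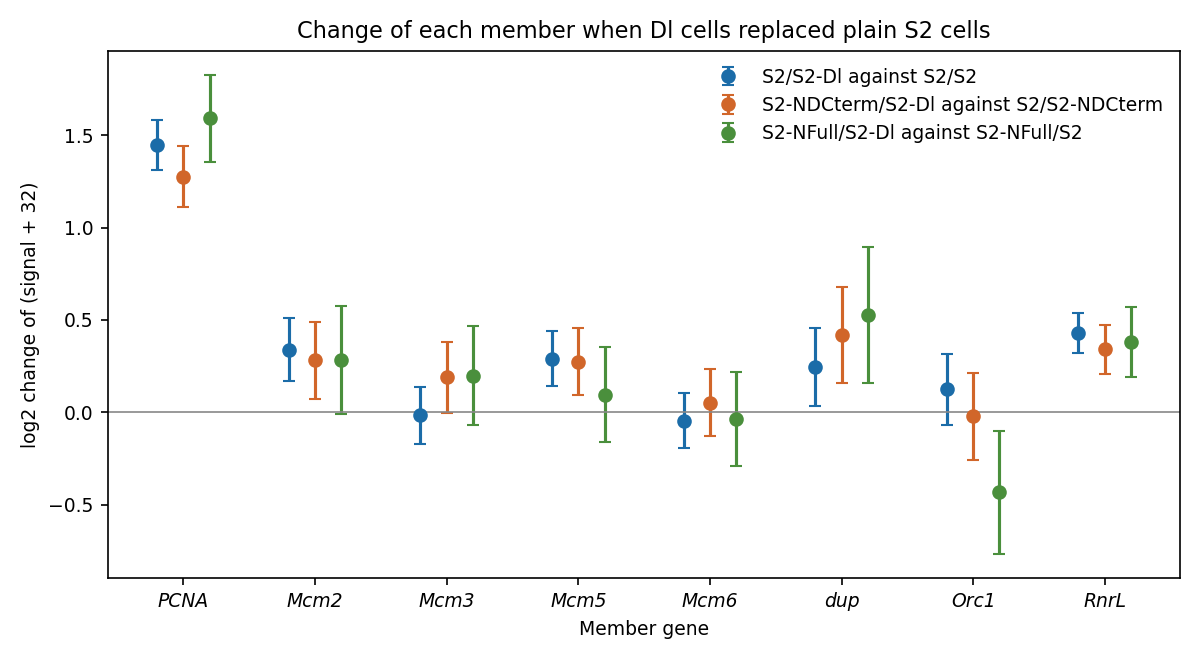
Change of each measured member, as the difference of mean log2(signal + 32), in the 3 comparisons of Dl cells with plain S2 cells, beside S2, NDCterm and NFull cells, with bars of 1 SE. PCNA lies at 1.28 to 1.59 and the other 7 members lie between -0.43 and 0.53.

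The remaining comparisons did not choose the members and were tested. They ask whether truncated Delta, NDCterm or NFull cells go with a change in replication genes, and whether the effect of Dl cells depends on the cells they meet. Over 9 comparisons and 8 members, limma called 0 of 72 pairs, and 6 had an unadjusted p below 0.05; the smallest adjusted p was 0.293. With the replicate number as a block, limma called 1 of these pairs, RnrL in S2/S2-NDCterm against S2/S2. The share of all probe sets called there with the block is not given here, so nothing is read from that call. Without the block and with 0 of 8 members called, the share of all probe sets called was 0.0746% for S2/S2-DlDI against S2/S2, 0.165% for S2/S2-NDCterm against S2/S2 and 0.181% for S2-NFull/S2 against S2/S2. It was 0.0213% for S2-NFull/S2-DlDI against S2-NFull/S2, 0.208% for S2-NFull/S2-DlDI against S2/S2-DlDI, 0.107% for NDCterm and 0.357% for NFull cells set against S2 cells where Dl cells were their partner. For the difference between the Dl effects it was 0.0107% with NDCterm cells and 0.0213% with NFull cells.

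PCNA itself differed little in these tests. Its change was 0.24 for truncated Delta cells beside S2 cells (95% interval -0.08 to 0.57), 0.22 for NDCterm cells (-0.11 to 0.55) and 0.19 for NFull cells (-0.23 to 0.60). Among the mixes with Dl cells, S2-NDCterm/S2-Dl differed from S2/S2-Dl by 0.05 (-0.28 to 0.38) and S2-NFull/S2-Dl by 0.33 (-0.08 to 0.75). The Dl effect beside NDCterm cells less that beside S2 cells was -0.17 (-0.64 to 0.29), and beside NFull cells it was 0.14 (-0.44 to 0.73). None of these was called, and the intervals leave room for a dependence on the partner cell of up to about these bounds.

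RnrL made up 5 of the 6 pairs with an unadjusted p below 0.05. Its mean signal was lower in S2/S2 than in any other mix, and it stood above S2/S2 by 0.41 ± 0.12 in S2/S2-NDCterm (limma unadjusted p = 0.00481, adjusted p = 0.293), by 0.36 ± 0.16 in S2-NFull/S2 (adjusted p = 0.706) and by 0.27 ± 0.12 in S2/S2-DlDI (adjusted p = 0.636). It was also higher by 0.47 ± 0.16 in S2-NFull/S2-DlDI than in S2/S2-DlDI (adjusted p = 0.61) and by 0.33 ± 0.12 in S2-NDCterm/S2-Dl than in S2/S2-Dl (adjusted p = 0.56). The remaining pair was Mcm6, at 877 and 842 in S2-NDCterm/S2-Dl against 543, 743 and 663 in S2/S2-Dl, with no overlap (0.40 ± 0.16, limma adjusted p = 0.626). None of these passed the adjusted threshold in the fit without a block. With the replicate number as a block, RnrL was called in S2/S2-NDCterm against S2/S2 (0.48 ± 0.10) and also in S2/S2-Dl against S2/S2 (0.43 ± 0.09). In the latter the block called 540 of 18769 probe sets. Several of the pairs share the S2/S2 samples, so they do not count as separate observations. The shares of all probe sets at an unadjusted p below 0.05 were 9.47%, 6.84%, 7.79%, 5.72% and 7.17% in the order given for RnrL, and 3.5%, 9.29%, 3.46% and 5.21% in the remaining 4 comparisons (truncated Delta beside NFull cells, NFull cells with Dl cells, and the differences between Dl effects for NDCterm and NFull cells).

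The members did vary together in another way, between replicates of the same mix. In S2/S2, S2/S2-Dl and S2/S2-DlDI alike, with 3, 3 and 2 samples, the sample numbered 2 had the highest signal of its mix for all 8 members, PCNA included. Above the mean of the other samples of its mix, replicate 2 of S2/S2 stood by 0.24 (PCNA) to 0.78 (dup) on the log2 scale, that of S2/S2-Dl by 0.08 (dup) to 0.34 (PCNA) and that of S2/S2-DlDI by 0.14 (Orc1) to 0.77 (dup). Of all probe sets tested, 13.2% were highest in replicate 2 of all 3 mixes, and of the 42 other replication genes 15 were (35.7%). This pattern was picked out after the values were seen and is a description. S2/S2 replicate 2 is also the array with the high median. The labels do not say what a shared number stands for. Over probe sets at or above the median mean signal, residuals of same-numbered S2/S2 and S2/S2-Dl samples were correlated (0.666, 0.42 and 0.523). Between replicates PCNA thus differed by amounts like those of the MCM genes, and between mixes with and without Dl cells by 1.28 to 1.59.

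A longer list of replication genes, set up with these earlier results known, held 51 genes in 8 roles, of which 42 were measured alone. Among the 9 that were not are E2f1, the E2F activator, and geminin, the inhibitor of dup. In S2/S2-Dl against S2/S2, limma called 3 of the 42 higher and 1 lower, where 1.11% of all probe sets were called higher and 0.197% lower. The median change of the 42 was 0.07 against -0.05 for all probe sets. The called genes lie in the supply of nucleotides, in chromatin assembly and among topoisomerases.

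Of the 3 nucleotide supply genes measured, dnk and Ts rose. The gene dnk encodes the deoxyribonucleoside kinase, which salvages nucleosides for DNA. Its signal was 1405, 2180 and 1996 in S2/S2 and 3474, 4014 and 3694 in S2/S2-Dl, with no overlap, and it rose by 1.01 ± 0.14 (limma adjusted p = 0.00253). Over all samples dnk ran from 3474 to 4219 in the 6 with Dl cells and from 1405 to 2961 in the 9 without. It was also higher beside NDCterm cells (0.53 ± 0.18, limma adjusted p = 0.357) and NFull cells (0.70 ± 0.25, adjusted p = 0.387), where it was not called. The Dl effect beside NDCterm cells less that beside S2 cells was -0.48 (95% interval -0.97 to 0.01), which was not called. S2/S2 had the lowest dnk of all mixes, and S2/S2-NDCterm (2777 and 2323), S2-NFull/S2 (2582) and S2-NFull/S2-DlDI (2961) lay between it and the mixes with Dl cells.

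Ts, thymidylate synthase, makes the thymidylate that DNA needs. It was at 311, 295 and 275 in S2/S2 and at 419, 476 and 437 in S2/S2-Dl, with no overlap, and it rose by 0.55 ± 0.11 (limma adjusted p = 0.0219). Beside NDCterm cells the change was 0.61 ± 0.13 (adjusted p = 0.065), which was called with the replicate block, and against truncated Delta 0.14 ± 0.12 (adjusted p = 0.904). The call in S2/S2-Dl was lost without S2/S2 replicate 3 (limma adjusted p = 0.0545) and without S2/S2-Dl replicate 1, 2 or 3 (0.0523, 0.141 and 0.0625). The third gene, dUTPase, had a change of 0.08 ± 0.09.

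In chromatin assembly 1 of 4 measured genes rose: asf1, a chaperone of histones behind the fork, at 232, 298 and 319.8 in S2/S2 and 444, 457 and 425 in S2/S2-Dl (0.60 ± 0.12, limma adjusted p = 0.0286). Its changes beside NDCterm and NFull cells were 0.19 ± 0.15 and 0.18 ± 0.21, and the call stayed in the 4 fits without S2/S2 replicate 1 or 3 or S2/S2-DlDI replicate 2 or 3. It was lost in the other 8 of 12 fits that left out a sample, with limma adjusted p from 0.0501 without S2/S2 replicate 2 to 0.158 without S2/S2-Dl replicate 2. The lowest asf1 of all mixes was in S2/S2. The other mixes without Dl cells stood above S2/S2 as well, by 0.33 (S2/S2-DlDI) to 0.41 (S2/S2-NDCterm). Top1, the topoisomerase that relieves supercoils, was the gene that fell, from 408, 449 and 362 to 246, 245.9 and 305 (-0.56 ± 0.12, limma adjusted p = 0.0391). That call stayed in 2 of 12 such fits, without S2/S2 replicate 3 or S2/S2-Dl replicate 3, and the largest limma adjusted p was 0.198, without S2/S2-Dl replicate 2. Top1 was also low in S2-NFull/S2 (262) and in S2-NFull/S2-DlDI (218), which hold no Dl cells.

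The roles other than those of dnk, Ts, asf1 and Top1 held no called gene in S2/S2-Dl against S2/S2 in the main fit. Over all probe sets 1.31% were called in that comparison, so nothing is read from the lack of calls in such short lists. The 7 genes of the clamp and clamp loader list ran from -0.18 to 0.24, among them RfC4 at -0.02 ± 0.10 and Gnf1, the large subunit of the loader, at 0.08 ± 0.14. PCNA2, a second clamp gene of flies, had a mean signal of 2.80, below the median of every array. The 6 of the helicase and its GINS partner ran from -0.01 to 0.36, with dpa, the Mcm4 gene of flies, at 0.13 ± 0.12. The 5 polymerase and primase genes ran from 0.02 to 0.38 and the 5 of origin licensing from -0.37 (chif) to 0.52 (Orc4). Orc4 (0.52 ± 0.14) was called higher under some alternatives: a mean signal of at least 50, no trend, and shared titles averaged. Of the 6 S phase regulators, Dref, whose product binds promoters of replication genes, had a difference of 0.31 ± 0.11 (limma adjusted p = 0.263) and CycE, cyclin E, by 0.04 ± 0.18.

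**Figure D4:**
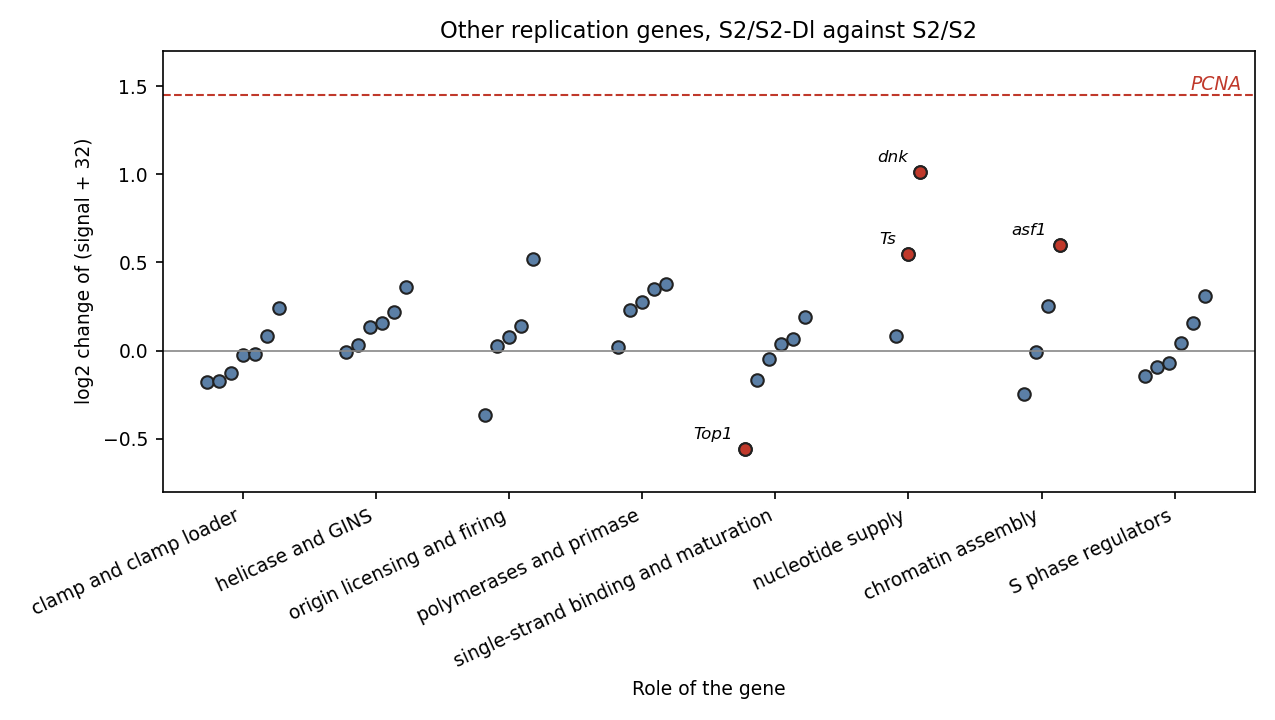
Change in S2/S2-Dl against S2/S2 (difference of mean log2(signal + 32)) of the 42 other replication genes, grouped by role, with called genes in red and the level of PCNA as a dashed line at 1.45. The called genes dnk (1.01), asf1 (0.60), Ts (0.55) and Top1 (-0.56) lie furthest from 0 and below the PCNA line, and the remaining genes lie between -0.37 and 0.52.

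Beside NDCterm and NFull cells limma called 0 of the 42 genes in the comparison with Dl cells, and 7 and 5 had an unadjusted p below 0.05. Among all probe sets 0.49% and 0.293% were called there, and 7.63% and 9.52% had such a p. With the replicate block 1 of the 42, Ts, was called beside NDCterm cells and 0 beside NFull cells. Of all 18769 probe sets the block called 234 and 52 there. In the main fit the median changes of the 42 were 0.15 and 0.14, against 0.01 and 0.03 for all probe sets. Psf1, a GINS subunit, had differences of 0.72 ± 0.19 and 0.68 ± 0.26 (limma adjusted p = 0.171 and 0.431), and CycE by 0.41 ± 0.22 and 0.88 ± 0.31 (limma adjusted p = 0.723 and 0.376). CycE was at 110 in S2-NFull/S2 and 231 in S2-NFull/S2-Dl, but at 246 in S2-NFull/S2-DlDI, a mix without Dl cells. In the 9 comparisons that did not choose the members, limma also called 0 of the 42, with 1 to 7 at an unadjusted p below 0.05.

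The genes most like PCNA over the mixes were not replication genes of these lists. Likeness was the root mean square difference from PCNA of the log2 change against S2/S2 over the other 7 mixes, ranked over 4599 genes with a mean signal of 100 or more. The nearest were CG12818 (0.208), B4 (0.266), CG34330 (0.305), Trf2 (0.332), a relative of the TATA-binding protein, CG1407 (0.342), CG33298 (0.342), mRpL39 (0.352), a protein of the mitochondrial ribosome, and Mnr (0.36). CG12818 was at 106, 94.95 and 76.4 in S2/S2 and at 358, 397 and 372 in S2/S2-Dl, and at 395 and 461 in S2-NDCterm/S2-Dl. Ranks are given for the members and for only some genes of the longer list, so no order of all replication genes is read. Of those given, dnk was nearest to PCNA, at rank 12 (0.398), with Ts at rank 63 and RnrL at rank 166. The ranks of the other members were 542 for Mcm2, 686 for Mcm5, 1461 for dup, 1809 for Mcm6, 2364 for Mcm3 and 2479 for Orc1. The 7 mix values share the S2/S2 samples, and no test was made.

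Among the genes that lie next to PCNA on its chromosome, 1 followed the same pattern under the rule of 3 annotated genes on either side. In the RefSeq order (Release 6 plus ISO1 MT) these are CG9864, Ate1 and Hsl before PCNA and plu, RpS18 and asRNA:CR43812 after it, and 4 of the 6 were measured alone. Ate1, an arginyltransferase that marks proteins for turnover, is 2 genes away. It was at 308, 364 and 276 in S2/S2 and 620.02, 633 and 580.1 in S2/S2-Dl, and it rose by 0.89 ± 0.11 (limma adjusted p = 0.000879). Beside NDCterm cells it rose from 309 and 274 to 716 and 812 (1.30 ± 0.14, limma adjusted p = 0.000511), and beside NFull cells from 271 to 807 (1.47 ± 0.20, adjusted p = 0.00483). Over all samples it ran from 580.1 to 812 in the 6 with Dl cells and from 246 to 364 in the 9 without, with no overlap.

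None of the other 3 measured genes within this window was called by limma in the 3 comparisons with Dl cells. RpS18, a ribosomal protein gene with a mean signal of 13644, had differences of 0.22 ± 0.13, 0.11 ± 0.15 and 0.13 ± 0.22. The gene plu, which controls replication in the early embryo, had a mean signal of 5.76, and CG9864, beyond Ate1, one of 17.2 with differences of 0.19 ± 0.18, 0.22 ± 0.22 and 0.78 ± 0.31. In a wider window of 6 genes on either side, looked at after the values were seen, 9 of 12 genes were measured. CG10444, 5 genes away, was at 654, 597 and 527 in S2/S2 and 1517, 1502 and 1123 in S2/S2-Dl, and its changes were 1.17 ± 0.13, 1.25 ± 0.16 and 1.52 ± 0.23 in the 3 comparisons with Dl cells. CG8908, between PCNA and CG10444, had 0.72 ± 0.20, 0.57 ± 0.24 and 0.13 ± 0.34, and Hacl and CG11788 had 0.02 to 0.43.

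**Figure D5:**
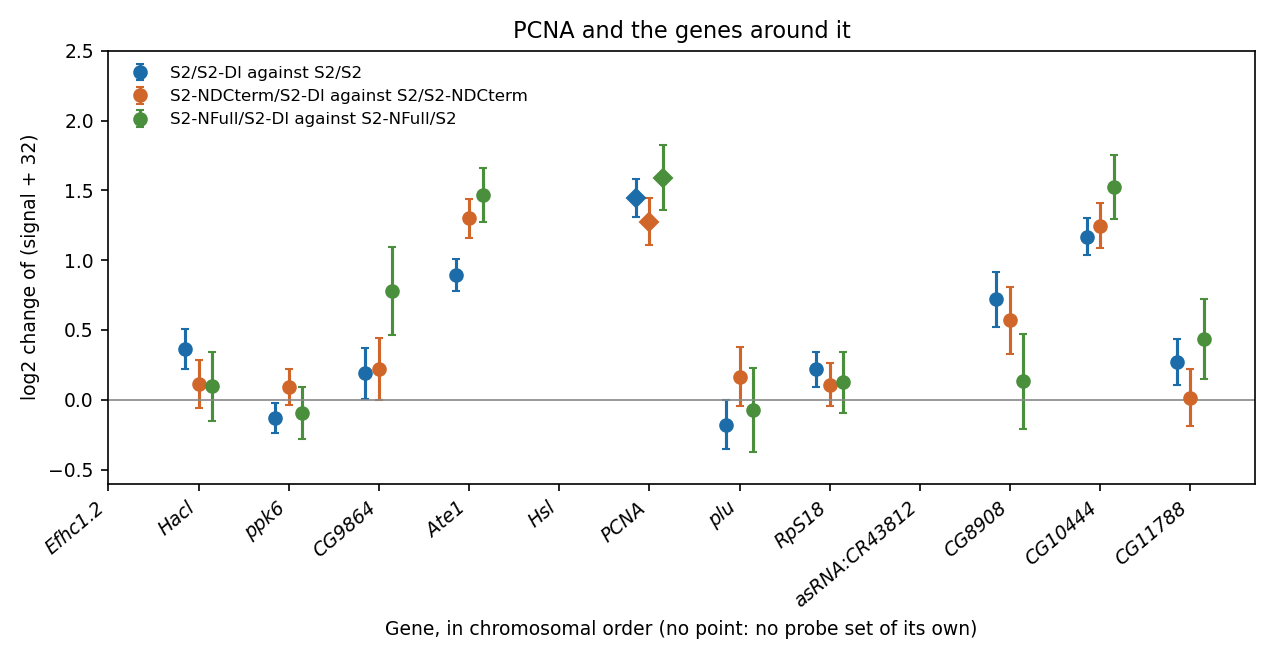
Change (difference of mean log2(signal + 32), bars of 1 SE) of PCNA (diamonds) and of the genes around it, in chromosomal order, in the 3 comparisons of Dl cells with plain S2 cells, beside S2, NDCterm and NFull cells; a gene without a point has no probe set of its own. PCNA (1.28 to 1.59), Ate1 (0.89 to 1.47) and CG10444 (1.17 to 1.52) stand above the genes between and around them.

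Ate1 and CG10444 also went with PCNA and Delta on the left-out arrays. In the 3 pairs that differ in Delta, the array with the higher Delta signal had a higher Ate1 signal by 1.57, 1.32 and 1.34 (log2) and a higher CG10444 signal by 1.35, 1.25 and 1.38. In the pair of S2-NFull/S2 replicate 1, which does not differ in that way, Ate1 differed by -0.18 and CG10444 by -0.20. The corresponding differences of dnk were 0.62, 0.39 and 0.24 in the 3 pairs and -0.21 in the fourth.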

How the data were processed

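Total RNA of 24 S2 cell mixes was hybridised to 1-colour expression arrays with 1 signal per probe set. The deposited intensity values are linear; which software and settings made them is not stated in the labels used here. The authors' values have a 2% trimmed mean of 150 on every array, so the arrays had been scaled before deposit, and no further scaling was applied. Scaling of this kind makes changes relative to the mean of an array.

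Of 18952 probe sets, 183 controls were set aside. The other 18769 were tested as log2(signal + 32) with no filter on low values, by limma (3.58.1, in R 4.3.3; lmFit and eBayes with trend) with the 8 mixes as groups, and p-values were adjusted by Benjamini-Hochberg within each comparison. A probe set was called at an adjusted p below 0.05. Probe sets were named through the platform annotation: 13647 had 1 gene, 402 had several and were not used by name, and 4720 had none. Tables were joined with Python 3.11.15 and pandas 2.3.3. The scripts were tested on simulated data.

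Arrays that share a title were averaged if they differed by less than separate replicates did (SD of their log2 differences 0.126 against 0.214 to 0.488), and otherwise left out of the fit, as the 4 other pairs with SDs of 0.34 to 0.384 were. All replicates are pools of 2 independent samples per the labels, and p-values measure the spread between these pools. Replicate numbers were taken from the titles. Same-numbered samples of S2/S2 and S2/S2-Dl deviated together (residual correlations 0.666, 0.42 and 0.523, over probe sets at or above the median mean signal). For S2/S2 and S2/S2-DlDI the values were 0.311 and 0.405, and for S2/S2 and S2/S2-NDCterm only 0.0678 and 0.0576. The main fit has no block and does not use this pairing. The block, which treats the numbers as pairing samples, was an alternative.

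The members and gene lists were chosen with earlier results of these data known. Besides the members, the text names replication genes of the list that were called or that stand for a role, the 8 genes most like PCNA, and 3 annotated neighbours on either side of PCNA in RefSeq order. Genes that mark the ends of a role's range and those of the 6-gene window were chosen after the values were seen. The alternatives were quantile normalization, offsets of 8 and 128, a mean signal of at least 50, no trend, the replicate block, shared titles averaged, shared titles left out, the compared mixes alone, and each sample left out in turn. No sequence is given here.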

Additional observations from a re-analysis of the deposited data

Results flagged for a closer look

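PCNA was high on 3 arrays outside the comparisons, all of them left out because they share a title with an array that differs from them. Its signal was 3805 on the first array of S2-NDCterm/S2-Dl replicate 2, 3862 on the first array of S2-NFull/S2-DlDI replicate 1 and 3845 on the first array of S2-NFull/S2-DlDI replicate 3. Each lies above 1777, the highest of the 9 samples without Dl cells, and within the range of the 6 samples with Dl cells. The S2-NFull/S2-DlDI arrays carry a label without full-length Delta, but their Delta signals were 12295 and 11031. No mix has 4 samples, so single samples were not tested as outliers.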

How the results depend on the processing

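PCNA was higher with Dl cells under every alternative that was run. Members with changes near their error did not all keep their sign: Mcm2, Mcm3, Mcm5 and dup turned to -0.10, -0.17, -0.27 and -0.03 beside NFull cells with the replicate block. In S2/S2-Dl against S2/S2 with single samples left out, Mcm3 ran from -0.13 to 0.11, Mcm6 from -0.20 to 0.09 and Orc1 from -0.08 to 0.35, and beside NDCterm cells Mcm3 ran from -0.01 to 0.39 and Orc1 from -0.17 to 0.12. Leaving out samples in turn gave PCNA differences (log2) of 1.33 to 1.56 for S2/S2-Dl against S2/S2, 1.20 to 1.36 for Dl cells beside NDCterm cells and 1.02 to 1.39 for S2/S2-Dl against S2/S2-DlDI, where the extremes are the fits without S2/S2-DlDI replicate 3 and replicate 2. With shared titles averaged, which mixes arrays of unlike Delta signal, the PCNA difference was 1.06 for Dl cells beside NDCterm cells and 1.06 between Dl and DlDI cells beside NFull cells. In the latter PCNA was then not called and 0 members were, by limma. Only 5 of 18769 probe sets were called there, so nothing about the members is read from that count. With the replicate number as a block, the PCNA difference was 1.27 between Dl and plain S2 cells beside NFull cells, whose samples bear different numbers, and 1.45 in S2/S2-Dl against S2/S2. Under this pairing 1 member, RnrL (0.48), was called in S2/S2-NDCterm against S2/S2, where the fit without it called 0; over all probe sets the calls went from 245 to 540 for S2/S2-Dl against S2/S2, from 92 to 234 for Dl cells beside NDCterm cells, from 120 to 219 for S2/S2-Dl against S2/S2-DlDI and from 40 to 71 between Dl and DlDI cells beside NFull cells. With the block dnk was called against S2/S2-DlDI as well. With shared titles averaged 1 member, RnrL (0.45), was called in S2-NFull/S2-DlDI against S2/S2-DlDI. The share of all probe sets called is not given for this comparison under that setting. Nor is it given for S2/S2-NDCterm against S2/S2 with the block. RnrL was also called in S2/S2-Dl against S2/S2 under the filter, the block, shared titles averaged and without S2/S2 replicate 2. In the last of these fits 207 of 18769 probe sets were called. Of the other replication genes dnk was called under all 21 alternatives, and Ts, asf1 and Top1 lost their calls with the compared mixes alone (limma adjusted p = 0.151, 0.175 and 0.227). In the same comparison Orc4 gained a call under the filter, with no trend and with shared titles averaged. There 396 of 6506, 257 of 18769 and 382 of 18769 probe sets were called.

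Each NFull mix has 1 sample, which limits what its comparisons can show. The compared mixes alone could not be fitted for the 3 comparisons between single NFull samples, shared titles left out could not be run for the 3 with S2-NFull/S2-DlDI, and the only sample of a mix was not left out. The cause of the changes named here was not tested, other than where the construction shows it.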
